A study of Oryza sativa with 36 samples.

Results

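The transcripts described here are the 76 whose level in rice roots was higher after zaxinone than after mock application at 2, 6 and 24 h. They were found among 28207 transcripts that the root tables list at all 3 times. The members were selected on raw counts scaled to the library total (CPM), from which a log2 ratio was formed as the log2 of the zaxinone mean plus 0.5 CPM over the mock mean plus 0.5 CPM. A transcript was kept when, at each time, its log2 ratio was at least 0.5, its lowest zaxinone library lay above its highest mock library and its zaxinone mean was at least 1 CPM. The rule left out 6 loci by name. Of these, Os01g42370, Os01g42380, Os07g23570 and Os03g55240 met every condition at all 3 times, whereas Os12g36880 and Os11g37700 did so at 2 times, so that 80 transcripts met the conditions with the left-out loci included. At a single time the conditions were met by 2.46%, 1.62% and 5.66% of the listed transcripts at 2, 6 and 24 h. Since the root zaxinone and mock libraries chose the members, their root ratios are given as a description and were not tested.

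The libraries came from wild-type Nipponbare rice seedlings, 3 weeks old and grown in hydroponic Hoagland solution that contained phosphate. Plants received 5 µM zaxinone or the acetone mock solution, and roots and shoots were taken 2, 6 and 24 h later, with 3 libraries in each of 12 conditions and 36 in all. The study calls the 3 libraries of a condition biological replicates. The labels do not say whether these were separate plants, pools or cultures, and p-values measure the spread between them. Library totals ranged between 11261992 and 36469854 counts with a median of 25265203. The smallest of them, root zaxinone 24 h replicate 2, stood apart: against the 5 remaining root libraries taken at 24 h the correlation of its log2 levels reached r = 0.934 at most, whereas each of these 5 had an r of at least 0.991 with another one of them. Loci of leaf photosynthesis, 5 in number and assigned from general knowledge, summed to 350.0 to 2228 CPM in roots and to 33358 to 57804 CPM in shoots. Loci of root nutrient uptake, also 5, summed to 3350 to 7424 CPM in roots and to 23.9 to 50.1 CPM in shoots, so the tissue labels fitted these markers.

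Zaxinone is an apocarotenoid, a compound formed when a carotenoid is cleaved, and in rice it is made by the enzyme zaxinone synthase (ZAS). It is known for promoting rice growth when applied to roots and for lowering the production of strigolactones, the hormones that roots also release to attract mycorrhizal fungi. Soon after such a small molecule reaches the root, transcripts can rise briefly, rise and stay high, or rise late. The set here holds those that stood higher at every time sampled. In whole roots, more RNA per cell and more cells of a type cannot be told apart.

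The files name transcripts by locus and do not pair them with gene names or products. A role is therefore given only for the 2 members that the study placed in a pathway. Os01g06660 was listed in sugar metabolism with the reaction that splits carbon dioxide from a 2-oxo acid to leave an aldehyde, a step of fermentation when the acid is pyruvate. Os03g24430 was listed among glucosyltransferases of cytokinin glucoside formation, in which the attachment of a sugar from UDP-glucose stores or inactivates these hormones. The reactions listed beside it attach glucose to the brassinosteroids castasterone and brassinolide and to the flavonoid quercetin. The study designed qRT-PCR primers for both and for 4 further members, and these primers are the member sequences at hand. The pairs of 4 members whose library values are given are shown 5′ to 3′, because they mark the transcripts by sequence where no gene name does.
Os07g44110 forward: aagcgcggagattgaactga
Os07g44110 reverse: gaagacctgcttcccctcac
Os03g24430 forward: tcgtctacgtcagcttcg
Os03g24430 reverse: atctcaccacccagatgaa
Os06g11130 forward: ctacgagagcctcaaggcca
Os06g11130 reverse: gcggatccatgcagtagaaga
Os01g05150 forward: gaagcaggagcactgatgggt
Os01g05150 reverse: gctacggagacggtggctatg

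Together the 76 transcripts took up a larger share of the reads in zaxinone roots than in mock roots at each time, as the rule requires. Their summed level was 4023 ± 221 CPM in zaxinone roots and 1413 ± 203 CPM in mock roots at 2 h (SD, n = 3 each). At 6 h it was 3662 ± 472 CPM in zaxinone roots and 1844 ± 149 CPM in mock roots. At 24 h it was 2822 ± 1165 CPM in zaxinone roots and 1005 ± 59.9 CPM in mock roots. The wide spread at 24 h came with replicate 2, whose sum was 4141 CPM, against 1930 and 2396 CPM in zaxinone replicates 1 and 3.

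The median margin over mock was smallest at 6 h. The median log2 ratio over the 76 members was 1.17, 0.85 and 1.36 at 2, 6 and 24 h, beside medians of -0.02, 0.01 and -0.03 over all transcripts with at least 1 CPM. The ratios of 2 h spanned 0.54 to 3.94, those of 6 h 0.51 to 2.83 and those of 24 h 0.53 to 2.60. A log2 ratio of at least 2 was reached by 16, 2 and 8 members at these times, and without replicate 2 of zaxinone at 24 h the last count was 3. Replicate 2 of zaxinone at 24 h carried part of the last median, which was 0.91 when it was left out. Its own median log2 level over the mock mean was 1.74, against 0.86 and 1.06 in zaxinone replicates 1 and 3, and it was the highest of the 3 zaxinone libraries for 61 of the 76 members. The depth and the low correlation of this library moved with the ratios at 24 h, and their part in them was not tested.

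**Figure D1:**
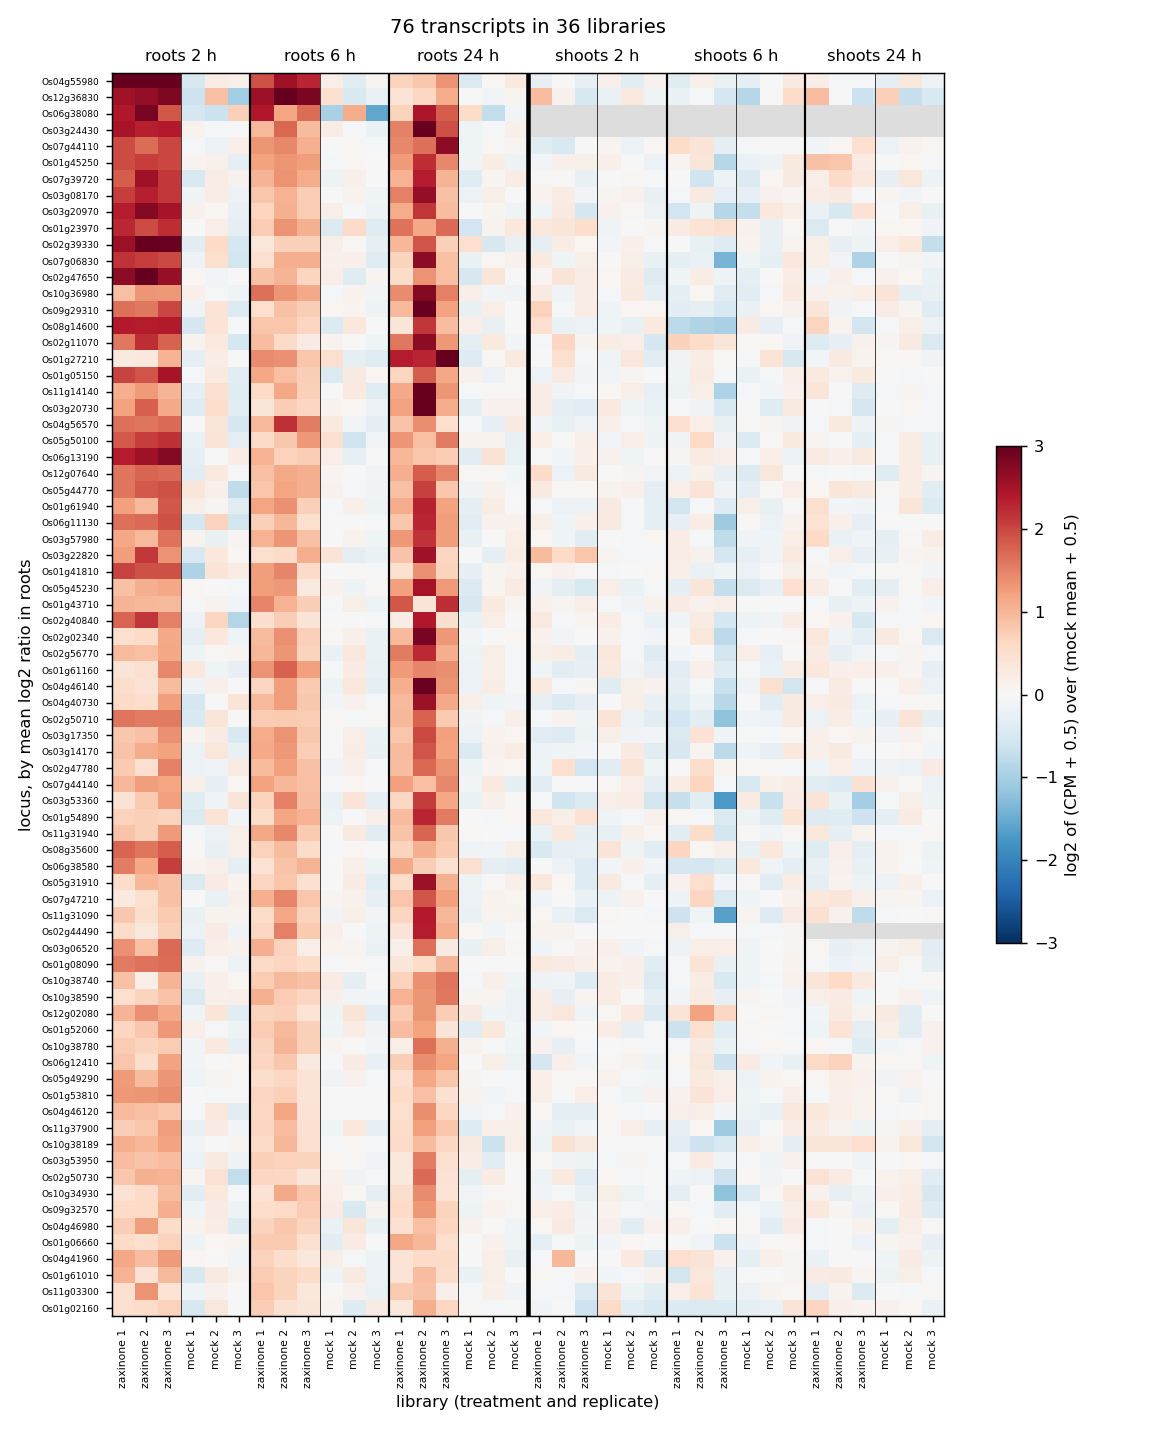
Level of the 76 transcripts (rows, by mean root log2 ratio) in the 36 libraries (columns), as the log2 of CPM + 0.5 over the mock mean + 0.5 of the same tissue and time. Colours saturate at -3 and 3, and grey marks transcripts not listed in a shoot table. The zaxinone root columns are red at all 3 times, with root zaxinone 24 h replicate 2 the darkest of its group for most members, while the shoot columns hold no such block.

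The separation between the groups, which the rule required to exist but not to be wide, also differed between the times. The gap was measured as the log2 of the lowest zaxinone library over the highest mock library, with 0.5 CPM added to both. Its median was 0.81, 0.43 and 0.53 at 2, 6 and 24 h. The gap reached 1 for 27, 5 and 9 members. Gaps under 0.1 were found for 5, 4 and 8 members at 2, 6 and 24 h, and the smallest, at 24 h, was nearly 0. Among the mock roots, replicate 2 at 2 h was the highest of its group for 47 members.

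**Figure D2:**
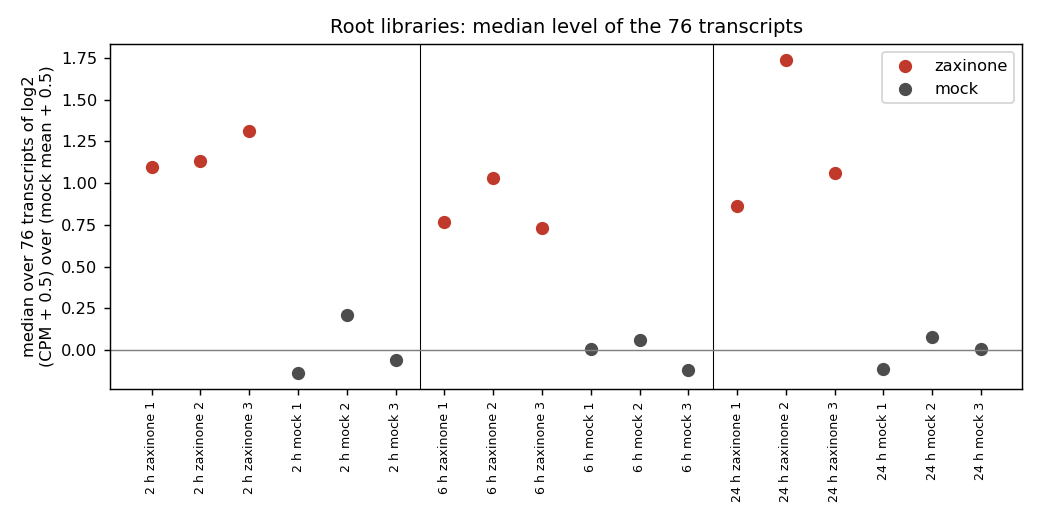
Median over the 76 transcripts of log2 (CPM + 0.5) over (mock mean + 0.5) in each of the 18 root libraries, with zaxinone left of mock at each time. All zaxinone libraries lie above all mock libraries, as the rule fixes, and zaxinone 24 h replicate 2 lies at 1.74, above its 2 replicates at 0.86 and 1.06.

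The order of the 3 ratios differed between members. In 33 members the ratio was largest at 2 h and smallest at 6 h, and in 21 it was largest at 24 h and smallest at 2 h. A further 14 had the order 24, 2 and 6 h, and the remaining 8 fell into the other 3 orders. Without replicate 2 of zaxinone at 24 h, the first 2 orders held 22 and 14 members, and 25 had the order 2, 6 and 24 h, which 5 had with it. The largest ratio thus stood at 2, 6 and 24 h for 38, 3 and 35 members. Without that library the same counts were 47, 10 and 19. The smallest ratio stood at 2, 6 and 24 h for 22, 47 and 7 members, and without that library for 19, 27 and 30, so both tallies rested on it in good part. The ranking of the members by their ratio at 2 h was only weakly related to that at 6 or 24 h, whereas the rankings at 6 and 24 h were more alike. The rule cut the ratios off at 0.5 at each time, which can weaken such correlations. Across the 76 members, which share the libraries of a time, Spearman's rho was 0.17 between the ratios at 2 and 6 h, 0.45 between 6 and 24 h and 0.088 between 2 and 24 h. Pearson's r was 0.39, 0.19 and 0.043 in this order, so the pair of times most alike depended on the measure. The values with 24 h include replicate 2 of zaxinone at that time.

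The largest root ratio of the set belonged to Os04g55980, which was nearly silent in mock roots. At 2 h its level was 17.5, 14.4 and 13.2 CPM in the zaxinone libraries, against 0.224, 0.680 and 0.633 CPM in the mock libraries. The 6 h levels were 5.99, 9.49 and 7.96 CPM with zaxinone and 1.48, 0.852 and 1.33 CPM with mock. At 24 h it was 1.003, 1.15 and 1.92 CPM with zaxinone and 0.195, 0.483 and 0.655 CPM with mock. The zaxinone level thus declined over the sampled times while staying above every mock library of the same time, as the rule requires. The log2 ratios were 3.94, 2.27 and 0.98 at 2, 6 and 24 h. The mock levels rested on as few as 6 reads in a library.

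Os12g36830 followed the same early course at a much larger share of the reads. At 2 h its level was 313, 340 and 382 CPM in zaxinone roots, against 35.2, 102 and 26.0 CPM in mock roots. The 6 h libraries had 192, 274 and 231 CPM with zaxinone, against 45.3, 23.5 and 27.8 CPM with mock. At 24 h it was 31.1, 36.1 and 51.0 CPM in zaxinone roots and 23.1, 22.2 and 25.0 CPM in mock roots. The ratio of 2.83 at 6 h was the highest of the set at that time, beside 2.66 at 2 h and 0.74 at 24 h. Mock replicate 2 at 2 h stood well above the other mock libraries but, as the rule requires, under every zaxinone library of that time. This locus lies 50 locus numbers from Os12g36880, one of the 6 loci that the rule left out.

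Os07g44110 stayed high throughout and had the highest zaxinone read level of the set at 2 h. It was at 452, 376 and 470 CPM in zaxinone roots and 113, 104 and 134 CPM in mock roots at 2 h. At 6 h the levels were 190, 207 and 159 CPM with zaxinone, against 76.9, 77.0 and 73.1 CPM with mock. At 24 h they were 150, 173 and 354 CPM with zaxinone, against 50.4, 56.7 and 58.0 CPM with mock. The high library at 24 h was replicate 3 and not replicate 2, so the ratio of 2.03 at 24 h became 2.19 without replicate 2. The ratios at 2 and 6 h were 1.89 and 1.29. In shoots the transcript was almost absent, with means between 0.0780 and 0.233 CPM with zaxinone and between 0.0670 and 0.190 CPM with mock.

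Os03g24430, of the cytokinin glucoside list, had the lowest mock level of the 76 in the mean over the times, although Os04g56570 was lower at 24 h. At 2 h it was at 3.07, 2.72 and 2.82 CPM in zaxinone roots, against 0.186, 0.113 and 0.127 CPM in mock roots. At 6 h it was at 0.762, 1.65 and 0.743 CPM in zaxinone roots, against 0.254, 0.122 and 0.0650 CPM in mock roots. At 24 h it was at 1.97, 6.57 and 2.80 CPM in zaxinone roots, against 0.292, 0.338 and 0.450 CPM in mock roots. The groups did not overlap at any time, as the rule requires, and a mock library held as few as 2 reads. The ratios were 2.39, 1.26 and 2.31. They depended on the value added to both means, and at 2 h the ratio was 2.99 with 0.25 CPM and 1.76 with 1 CPM. The transcript was not listed in any shoot table.

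Os06g38080 had a wide spread in mock roots beside a large ratio. It was at 29.6, 40.9 and 20.4 CPM with zaxinone and 3.54, 3.17 and 8.95 CPM with mock at 2 h. Its 6 h libraries were at 14.3, 5.85 and 8.39 CPM with zaxinone and 0.931, 5.52 and 0.455 CPM with mock. At 24 h it was at 0.966, 4.44 and 2.76 CPM with zaxinone and 0.843, 0.0483 and 0.369 CPM with mock. At the last 2 times the lowest zaxinone library cleared the highest mock library only narrowly, and the ratios were 2.43, 1.84 and 1.81. Like Os03g24430, it was not listed in shoots.

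**Figure D3:**
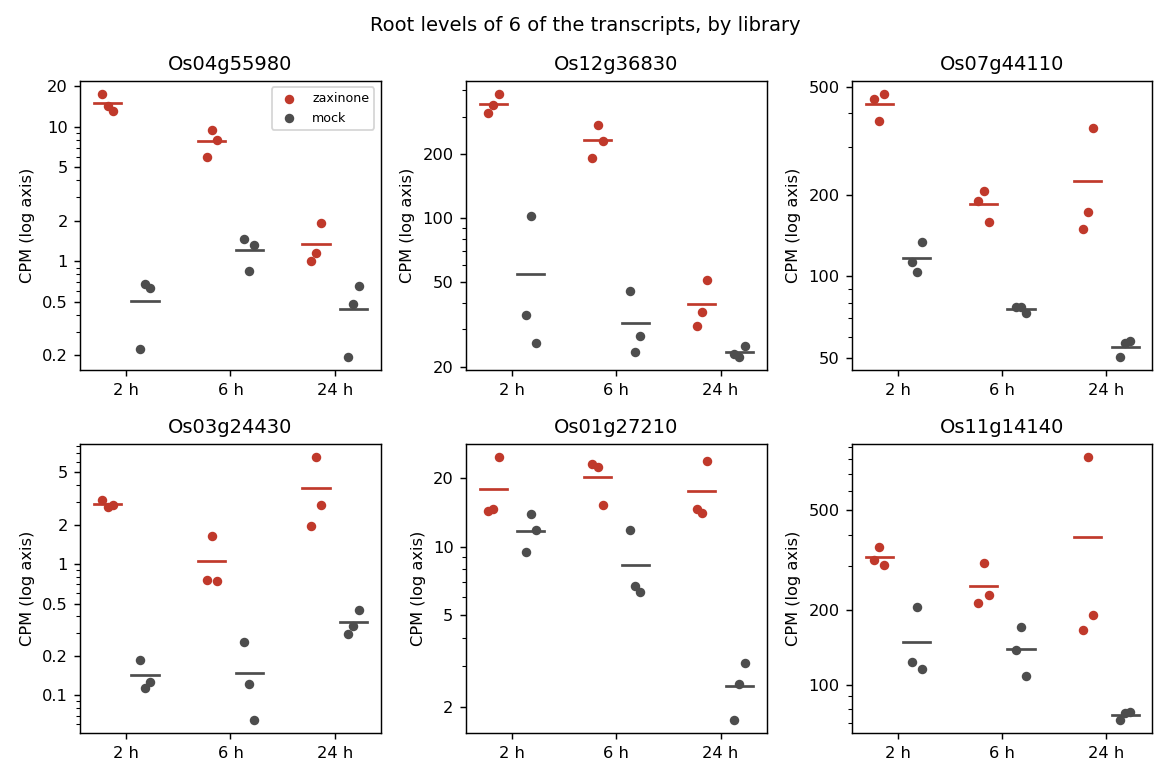
CPM on log axes of 6 transcripts in the 18 root libraries at 2, 6 and 24 h, with zaxinone left of mock, 1 point per library and a line at the mean. Os04g55980 and Os12g36830 have their widest separation at 2 or 6 h, Os01g27210 has it at 24 h with a falling mock level, and the 24 h mean of Os11g14140 is lifted by 1 library at 819 CPM.

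The other members with the largest mean of the 3 ratios were Os01g45250, Os07g39720, Os03g08170, Os03g20970 and Os01g23970. All 5 had their largest ratio at 2 h, between 2.02 and 2.53, and their smallest at 6 h, between 0.84 and 1.26. Os01g45250 was at 70.0, 76.1 and 71.8 CPM in zaxinone roots at 2 h, against 18.9, 19.5 and 14.2 CPM in mock roots. At 6 h it had 25.2, 27.3 and 26.1 CPM in zaxinone roots, against 10.3, 11.1 and 10.6 CPM in mock roots. At 24 h it had 12.6, 24.6 and 14.3 CPM in zaxinone roots, against 4.51, 5.85 and 4.38 CPM in mock roots, so the spread with zaxinone was wider then. Os02g39330 and Os02g47650 ranked high at 2 h alone. The ratios of Os02g39330 were 2.86, 0.60 and 1.29, and those of Os02g47650 were 2.84, 0.85 and 0.97.

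Of the late members, Os01g27210 had the largest ratio at 24 h. Its zaxinone level hardly moved, at 14.4, 14.6 and 24.6 CPM at 2 h and 14.6, 14.0 and 23.7 CPM at 24 h, while the mock level was 9.51, 13.9 and 11.8 CPM at 2 h and 1.75, 2.51 and 3.11 CPM at 24 h. Its ratios of 0.59, 1.23 and 2.60 therefore grew as the mock level declined, and without replicate 2 the ratio at 24 h was 2.73. Os11g14140 and Os03g20730 came next at 24 h and behaved otherwise. Os11g14140 was at 166, 819 and 190 CPM in zaxinone roots, against 72.4, 77.1 and 77.6 CPM in mock roots at that time. Os03g20730 was at 30.2, 139 and 28.0 CPM in zaxinone roots, against 10.2, 14.1 and 13.8 CPM in mock roots. In both, replicate 2 was far above the other zaxinone libraries, and without it the ratios of 2.36 and 2.32 became 1.23 and 1.16. Leaving out that library brought 7 members under the ratio of 0.5 at 24 h, the lowest being Os03g06520 at 0.23, and 69 stayed at or above it.

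Mock roots changed over the same hours, and many members took part in it. Every 6 h mock library lay above every 2 h mock library in 33 of the 76, against 20.9% of the listed transcripts, and below in 8, against 13.2%. Every 24 h mock library lay below every 6 h mock library in 46, against 23.8% of all transcripts, and above in 7, against 17.8%. Between 24 and 2 h, 14 were above, against 16.1% of all, and 29 below, against 14.1%. Time after application and time of day cannot be told apart here. The mock levels entered the rule, so these counts are a description.

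In 30 members every 6 h mock library was above all mock libraries of 2 and 24 h, a profile held by 11.3% of all 28207 transcripts. The zaxinone mean was also highest at 6 h in 21 of these 30, whereas it was highest at 2 h in 6 and at 24 h in 3. Their median zaxinone levels were 15.9, 50.8 and 22.9 CPM at 2, 6 and 24 h, and their median mock levels were 6.40, 26.3 and 8.29 CPM. The ratio had medians of 0.98, 1.02 and 1.39, so that zaxinone roots stood above mock roots by about as much at the crest as at 2 h. Os11g31090, the one of them with the highest zaxinone level at 6 h, had 220, 335 and 243 CPM in zaxinone roots then, against 138, 168 and 142 CPM in mock roots. At 2 h it had 123, 102 and 121 CPM in zaxinone roots, against 60.0, 75.2 and 75.8 CPM in mock roots.

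The other 46 members had no such crest. Their median zaxinone levels were 30.4, 15.5 and 16.6 CPM at 2, 6 and 24 h, and their median mock levels 11.1, 8.55 and 7.52 CPM. Their ratio had medians of 1.60, 0.82 and 1.29 and was largest at 2 h in 31 of the 46. It was largest at 24 h in 21 of the 30 members with the mock crest and in 14 of the 46 others. Without replicate 2 of zaxinone at 24 h, these counts were 10 and 9. The split uses the mock values from which the ratios are formed, and was not tested.

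**Figure D4:**
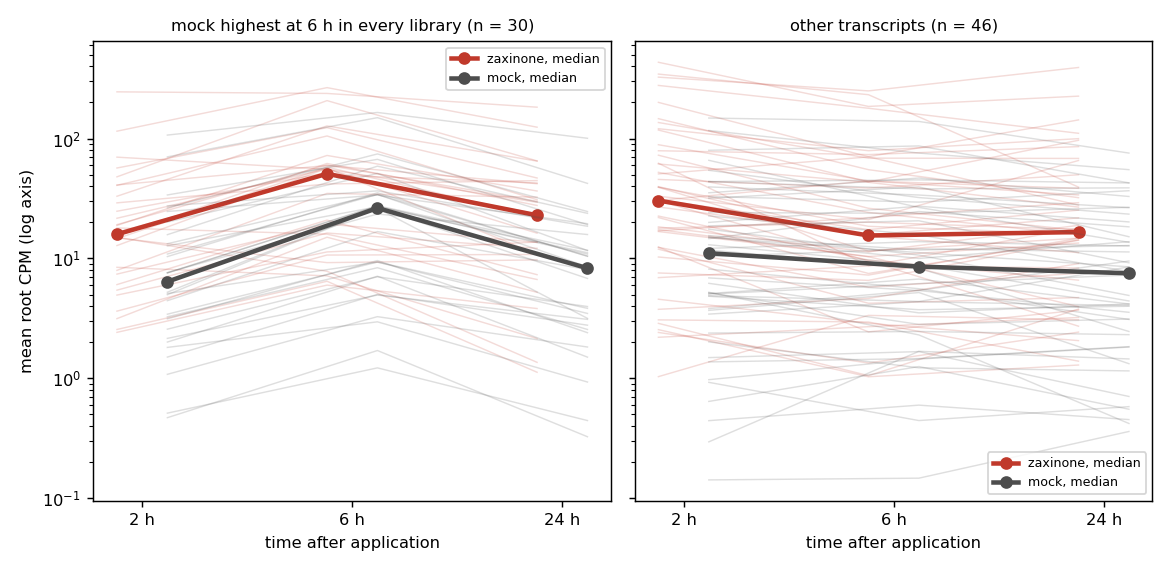
Mean root CPM on a log axis at 2, 6 and 24 h (evenly spaced) for the 30 transcripts with their highest mock level at 6 h in every library (left) and the other 46 (right). Thin lines are single transcripts in zaxinone (red) and mock (grey) roots and thick lines are medians. The left medians crest at 6 h at 50.8 CPM with zaxinone and 26.3 CPM with mock, and the right medians are highest at 2 h at 30.4 and 11.1 CPM.

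Within the set, the ranking by ratio had little relation to the ranking by mock level. The mock level is part of the ratio, and the rule cut off low ratios and low zaxinone means, so this describes the selected members only. Over the 76 members, Spearman's rho between the log2 ratio and the log2 mock level was -0.08, -0.04 and -0.04 at 2, 6 and 24 h. Mock means ranged between 0.142 and 148 CPM at 2 h. At the upper end, Os05g49290 had 259, 207 and 269.9 CPM in zaxinone roots at 2 h, against 97.7, 114 and 109 CPM in mock roots, and ratios of 1.19, 0.53 and 0.86. At the lower end, Os10g38189 had 2.55, 2.32 and 2.77 CPM in zaxinone roots at 2 h, against 0.858, 0.906 and 1.01 CPM in mock roots, and ratios of 1.10, 0.70 and 0.73. CPM is not scaled to transcript length, so levels are not comparable between transcripts.

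The members with primers were spread over the whole range. Os06g11130 had 112, 116 and 135 CPM in zaxinone roots at 2 h, against 24.5, 57.5 and 23.8 CPM in mock roots, and its ratios were 1.76, 0.75 and 1.59 at 2, 6 and 24 h. Os01g05150 had 4.19, 3.70 and 5.81 CPM in zaxinone roots at 2 h, against 0.597, 0.906 and 0.422 CPM in mock roots, with ratios of 2.15, 0.95 and 1.28. Os05g45230 was a late member with ratios of 1.05, 1.02 and 1.79. Os01g06660, the decarboxylase of the sugar metabolism list, was among the weakest. It had 30.1, 28.6 and 32.7 CPM with zaxinone at 2 h, against 17.9, 20.9 and 21.2 CPM with mock, and ratios of 0.60, 0.69 and 0.91.

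Each pathway list of these 2 annotated members shared 1 locus with the set, which held 76 of all 28207 transcripts. The share of all listed transcripts that met the conditions was 2.46%, 1.62% and 5.66% at 2, 6 and 24 h. The study chose both lists on these libraries, so they are no independent evidence of a direction. Of the 24 loci of sugar metabolism, 5, 8 and 2 met the conditions at 2, 6 and 24 h, and Os01g06660 alone met them at every time. The median log2 ratio of the 24 was 0.02, 0.44 and 0.24. Of the 13 loci of the cytokinin glucoside list, 2, 4 and 13 met the conditions at 2, 6 and 24 h, with median ratios of 0.20, 0.46 and 1.71. A ratio above 0 was found for 10 of 12, 11 of 13 and 13 of 13 listed loci at these times, and Os03g24430 was the one that met the full conditions at every time. The primer list of 28 loci held 6 of the 76 members and 2 of the left-out loci.

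The members lay on all 12 chromosomes, from 15 on chromosome 1 to 2 each on chromosomes 8 and 9. Loci are numbered along a chromosome, and 4 pairs of members lay within 50 locus numbers of each other. These were Os02g50710 and Os02g50730, Os04g46120 and Os04g46140, Os07g44110 and Os07g44140, and Os10g38740 and Os10g38780. Over the 18 root libraries the log2 levels of the partners had Pearson's r of 0.73, 0.90, 0.83 and 0.87 in this order, values that share the treatment and time differences which chose them. Whether partners share sequence or reads was not tested. In the first pair Os02g50710 had ratios of 1.57, 0.76 and 1.25. Os07g44140 was at 133, 157 and 150 CPM in zaxinone roots at 2 h, against 72.6, 55.7 and 69.1 CPM in mock roots, and at 24 h its mock level had declined to 12.9, 16.7 and 11.3 CPM, beside 32.8, 25.9 and 37.6 CPM with zaxinone.

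The edge of the set was not a gap in the data. Just inside the ratio of 0.5 lay Os04g41960 with 0.51 at 6 h, Os05g49290 with 0.53 at 6 h and Os01g02160 with 0.53 at 6 h. Just outside lay Os09g27260 with 0.499967 at 6 h, Os08g29570 with 0.498 at 24 h and Os02g52000 with 0.495 at 2 h. At one time or more, 14 members had a ratio under 0.6, and 52 further transcripts met all conditions but the minimum ratio.

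The members were not specific to roots. In mock plants their median level in roots was 7.60, 10.9 and 7.91 CPM at 2, 6 and 24 h, against 3.40, 3.77 and 3.75 CPM in shoots. All mock root libraries lay above all mock shoot libraries in 45 of 74, 54 of 74 and 47 of 73 listed members at 2, 6 and 24 h, beside 42.4%, 45.6% and 49.9% of all transcripts listed in both tissues. The reverse order held in 16, 12 and 16 members, against 26.2%, 27.1% and 24.6% of all. The rule required at least 1 CPM in zaxinone roots and set no minimum in shoots, whereas the shares of all transcripts had no such condition. Part of the difference from these shares can come from the rule, so the counts are a description. Os07g44110 had the strongest preference for roots among the members listed in both, whereas Os03g06520 was more abundant in shoots, at up to 358 CPM as a mean of mock shoots at 24 h.

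The shoots of the same plants were not used by the rule, and there zaxinone was tested against mock by edgeR's quasi-likelihood test. After the filter on low counts, 67, 63 and 63 members were tested at 2, 6 and 24 h. None passed an adjusted p of 0.05 in edgeR at any time, and none did in DESeq2. In edgeR the shares of all tested transcripts that passed were 0%, 0.00433% and 0%. In DESeq2 they were 0.00336%, 1.08% and 0.0102%. Beside such low shares, a count of 0 among the members is not read as a result about them. The smallest adjusted p of a member in edgeR was 0.996, 0.270 and 0.9997 at these times. With an unadjusted p under 0.05, 3, 5 and 4 members were higher, beside 1.85%, 4.47% and 2.65% of all tested transcripts, and 1, 5 and 1 were lower, beside 2.19%, 7.37% and 1.31%.

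The median shoot difference was also small, although the intervals of many members did not exclude a log2 change of 0.5. The median log2 fold change of the tested members was 0.05, -0.11 and 0.06 at 2, 6 and 24 h, with median standard errors of 0.18, 0.25 and 0.20. It was above 0 in 40 of 67, 22 of 63 and 37 of 63 members. The upper end of the 95% interval lay under 0.5 in 39, 38 and 34 of them, beside 78.3%, 76.9% and 74.7% of all tested transcripts. It lay under the member's own root ratio in 61, 52 and 56. The rule had chosen the members for high root ratios, so these counts are a description. In the remaining 6, 11 and 7 the interval reached up to or past the root ratio. The estimate itself was at or above the root ratio in 2 of these, Os12g02080 at 6 h with 0.89 in shoots, against 0.60 in roots, and Os10g38189 at 24 h with 0.74 in shoots, against 0.73 in roots. The measures differ, since the root ratio adds 0.5 CPM to both means and the edgeR fold change does not. That addition draws ratios of low levels toward 0. Os10g38189 had shoot means of only 0.760 CPM with zaxinone and 0.446 CPM with mock at 24 h. The summed level of the set was 979 ± 9.58 CPM in zaxinone shoots and 971 ± 64.0 CPM in mock shoots at 2 h (SD, n = 3 each). At 6 h it was 883 ± 127 CPM with zaxinone and 902 ± 77.7 CPM with mock, and at 24 h 1058 ± 91.0 CPM with zaxinone and 1067 ± 106 CPM with mock.

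**Figure D5:**
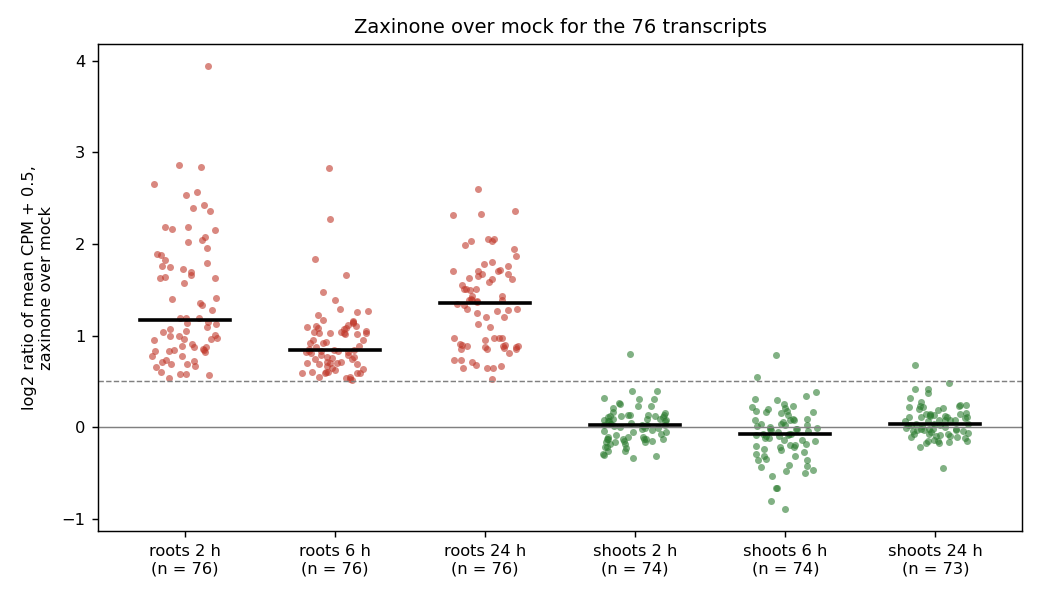
Log2 ratio of mean CPM + 0.5, zaxinone over mock, for each transcript (points) and the median (bars) in roots and shoots at 2, 6 and 24 h; the dashed line is the ratio of 0.5 that the rule required in roots. Root medians are 1.17, 0.85 and 1.36 with every point above the line, and the shoot points lie around 0.

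A few single members moved most in shoots. Os03g22820 had the smallest unadjusted p at 2 h, with 1.47, 1.03 and 1.30 CPM in zaxinone shoots, against 0.586, 0.483 and 0.486 CPM in mock shoots. Its groups did not overlap and its log2 fold change was 1.31 ± 0.28 (SE), but its adjusted p in edgeR was 0.996. In roots at 2 h the same transcript had 1.73, 3.62 and 1.89 CPM with zaxinone, against 0.186, 0.680 and 0.464 CPM with mock. Os08g14600 had the smallest p at 6 h and ran the other way, with 0.278, 0.227 and 0.194 CPM in zaxinone shoots, against 1.12, 0.647 and 0.818 CPM in mock shoots, and a log2 fold change of -1.84 ± 0.44 (SE) with an adjusted p of 0.270 in edgeR. Os12g02080 and Os02g11070 came next at 6 h with log2 fold changes of 0.89 and 0.61. At 24 h Os01g45250 had 4.41, 4.23 and 2.69 CPM in zaxinone shoots, against 2.19, 2.27 and 2.05 CPM in mock shoots, and a log2 fold change of 0.80 ± 0.22 (SE) with an adjusted p of 0.9997 in edgeR.

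All zaxinone shoot libraries lay above all mock shoot libraries in 3, 4 and 8 listed members at 2, 6 and 24 h, beside 3.65%, 7.4% and 4.54% of all transcripts, and below them in 2, 7 and 1, beside 5.29%, 7.37% and 3.81%. One member was called in a subset of the libraries. Without zaxinone replicate 2 of the 6 h shoots, Os03g14170 had a log2 fold change of -0.64 and an adjusted p of 0.0465 in edgeR, in a fit in which 2.43% of all tested transcripts were called.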

How the data were processed

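RNA from rice roots and shoots was sequenced as paired ends. The authors trimmed the reads with Trimmomatic, aligned them with HISAT2 to the O. sativa genome 7.0 of Phytozome and counted them with HTSeq, and they deposited a table of raw read counts for each tissue at each time. Whether counting used strand is not given in the sources used here. Columns of log2 change and of p-values, deposited beside the counts from the authors' own comparison, were not used.

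The members and lists were chosen with earlier results of these data known. CPM were computed from the library total. Replicate libraries differed beyond counting noise, with a chi-square per degree of freedom of at least 5.488 over 36 pairs, so each was counted. Shoots were tested with edgeR 4.0.16 (R 4.3.3) on 6 libraries per time, after TMM normalization and filterByExpr, by the two-sided quasi-likelihood test, and p was adjusted after Benjamini and Hochberg with a threshold of 0.05. In counts simulated for shoots at 2, 6 and 24 h (23281, 23084 and 22786 transcripts), 85.9%, 81% and 83% of transcripts changed by a log2 of 1 were recovered, and 98%, 99.0% and 100% of those changed by 2. The simulation used the dispersion trend alone and planted 200 changed transcripts of any level. Recovery of members in the real shoots can therefore be lower, since few transcripts pass there and many members have low levels.

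Members were named if they had 1 of the 10 largest mean ratios, 1 of the 3 largest ratios at a time, 1 of the 3 highest or lowest mock levels, a place in the study's lists, a neighbour, 1 of the 3 smallest p-values at a shoot time or a ratio nearest the threshold. Os03g06520 and Os03g14170 were named after their values were seen, and so were the members of the closing section outside this rule. The alternatives were other scalings, pseudocounts, thresholds, filters, DESeq2 1.42.0, the replicate number as a block, all 18 shoot libraries in 1 fit, and each library left out in turn. The labels give the replicate numbers no meaning. Deviations of same-numbered zaxinone and mock libraries were weakly correlated in shoots at 2 h, with r between 0.100 and 0.174 over 3 pairs, all over 0.1. These values do not establish a pairing, and the main test did not pair the libraries. At the other times, and in roots, at least 1 pair was not over 0.1. RefSeq gene tables matched none of the loci.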

Additional observations from a re-analysis of the deposited data

Results flagged for a closer look

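In 10 cases every zaxinone shoot library of a member lay below every mock shoot library. In roots the order was the reverse at the same time, as the rule fixed for all members. The cases were 2, 7 and 1 of 74, 74 and 73 members listed in shoots at 2, 6 and 24 h. The shares of all listed transcripts were 5.29%, 7.37% and 3.81%, and no opposition between the tissues is read from the counts. The difference between the tissues was not tested, and none of the shoot differences passed an adjusted p of 0.05 in edgeR. At 2 h these were Os03g17350, with a log2 ratio of 1.04 in roots and -0.29 in shoots, and Os04g40730, with 0.83 in roots and -0.30 in shoots.

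At 6 h there were 7. Os08g14600 had a log2 ratio of 0.77 in roots and -0.89 in shoots, and Os02g50710 had 0.76 in roots and -0.66 in shoots. Its neighbour Os02g50730 had 0.55 in roots and -0.29 in shoots. Os06g38580 had 0.79 in roots and -0.47 in shoots, and Os10g38189 had 0.70 and -0.47. Os01g02160 had 0.53 in roots and -0.41 in shoots, and Os09g29310 had 0.71 and -0.35. At 24 h Os01g54890 had 1.71 in roots and -0.45 in shoots. Os01g02160 and Os06g38580 did not pass the filter on low counts in shoots at 6 h. Of all transcripts listed in shoots, 5.29%, 7.37% and 3.81% had their zaxinone libraries below the mock libraries at 2, 6 and 24 h.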

How the results depend on the processing

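The number of members depended on the minimum ratio, at 16 with a log2 ratio of at least 1 and 128 with one of at least 0, and less on other choices. It was 80 with TMM factors and 81 with DESeq2 size factors, each sharing 74 with the 76, and 72 to 97 when single root libraries were left out. With single libraries left out, the median root ratio was 1.11 to 1.24 at 2 h, 0.78 to 0.93 at 6 h and 0.91 to 1.51 at 24 h, and the members called in shoots were 0 to 0 at 2 h, 0 to 1 at 6 h and 0 to 0 at 24 h. The 1 was found without zaxinone replicate 2, where fewer samples were fitted. The counts of members by time of largest or smallest ratio, by order of the ratios and with a ratio of at least 2, without zaxinone 24 h replicate 2, were chosen after seeing the data. Among the main values, 89 moved by less than the spread between replicates (counts, by less than 1.5 times) and 3 by more. Among the other values, 1143 moved by less than these limits, 9 by more, and none changed direction. The log2 change of Os03g24430 at 2 h in roots moved most with the value added to the means, and low counts limit such members.

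With the replicate number as a block, 0 members were called in shoots at 2, 6 and 24 h, so the block changed no call of a member. This held also in shoots at 2 h, where all 3 same-numbered pairs had r over 0.1. Elsewhere the deviations of same-numbered pairs had r between -0.240 and 0.0795 in shoots at 6 h (0 of 3 over 0.1), between -0.0692 and 0.176 in shoots at 24 h (1 of 3) and between -0.00371 and 0.274 in roots (3 of 9). Counts of all called transcripts in shoots at 6 h were 1 of 23084 in edgeR and 158 of 14633 in DESeq2, with 0 members in either. A search of promoters for motifs was not run.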
